A study of Rattus norvegicus with 23 samples.

Results

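The data described here cover 10 genes of zinc handling, namely the metallothioneins Mt1 and Mt2A, the metal-responsive transcription factor Mtf1, the zinc exporters Slc30a1, Slc30a4 and Slc30a5 and the zinc importers Slc39a1, Slc39a8, Slc39a10 and Slc39a14. They were found by their symbols among the 30452 genes of the rat count table, and each symbol matched a single gene. RNA was sequenced from 2 rat kidney cell lines, NRK-52E (called NRKE in the labels and given there as epithelial) and NRK-49F (NRKF, fibroblasts). Both lines had been kept without serum for 24 h and were then held for 48 h in medium of pH 7.4 or in medium brought to pH 6.0 with hydrochloric acid. NRK-52E cells gave n = 6 samples at each pH, and NRK-49F cells gave n = 6 at pH 7.4 and n = 5 at pH 6.0. Each cell line is a single established line, and the labels split it into a pair of sample groups (1 and 3 for NRK-52E, 4 and 6 for NRK-49F) without saying what a sample group is. The labels do not say whether the samples came from separate cultures, so the p-values below measure the spread between these samples, which may be technical.

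Zinc is a cofactor of many enzymes and of zinc-finger proteins, and cells keep the free ion scarce. Metallothioneins are small cysteine-rich proteins that bind zinc, copper and cadmium, and in the kidney they are best known for holding cadmium in the tubule. When free zinc rises, MTF1 enters the nucleus and binds metal response elements, short DNA motifs in front of the metallothionein genes and of Slc30a1. Proteins of the SLC30 family (ZnT) move zinc out of the cytosol, across the plasma membrane or into organelles, and proteins of the SLC39 family (ZIP) move it into the cytosol. SLC39A8 and SLC39A14 also carry manganese, iron and cadmium.

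The metal response element gives these genes a sequence feature that can be read directly. Its core was searched as TGCACNC and TGCGCNC (N is any base) on both strands of the 250 bases in front of each transcription start in the RefSeq promoters of rat build GRCr8, which held 9 of the 10 genes (Slc39a14 was the one without an entry). The windows of the 2 metallothioneins, of the MTF1-linked exporter Slc30a1 and of the importer Slc39a10 are shown, because they span the range from many matches to none. They read 5′ to 3′ on the strand of the gene, and capitals mark each match to the core, of which the ones on the opposite strand appear as their reverse complement.
Mt1: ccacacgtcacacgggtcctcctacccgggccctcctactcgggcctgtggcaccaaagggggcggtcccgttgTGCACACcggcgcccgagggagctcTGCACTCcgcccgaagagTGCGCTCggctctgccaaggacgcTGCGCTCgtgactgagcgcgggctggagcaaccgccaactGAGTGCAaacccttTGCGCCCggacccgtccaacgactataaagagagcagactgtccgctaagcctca
Mt2A: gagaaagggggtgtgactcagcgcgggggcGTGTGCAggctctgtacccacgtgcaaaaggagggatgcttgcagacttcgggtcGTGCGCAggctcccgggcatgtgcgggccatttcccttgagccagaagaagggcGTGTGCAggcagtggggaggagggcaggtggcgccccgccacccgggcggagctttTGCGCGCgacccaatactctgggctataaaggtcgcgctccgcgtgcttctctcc
Slc30a1: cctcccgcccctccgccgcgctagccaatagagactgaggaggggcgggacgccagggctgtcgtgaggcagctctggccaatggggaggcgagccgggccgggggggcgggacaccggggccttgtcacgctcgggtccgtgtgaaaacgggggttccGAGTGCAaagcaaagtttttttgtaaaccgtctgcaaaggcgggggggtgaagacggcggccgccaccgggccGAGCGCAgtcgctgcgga
Slc39a10: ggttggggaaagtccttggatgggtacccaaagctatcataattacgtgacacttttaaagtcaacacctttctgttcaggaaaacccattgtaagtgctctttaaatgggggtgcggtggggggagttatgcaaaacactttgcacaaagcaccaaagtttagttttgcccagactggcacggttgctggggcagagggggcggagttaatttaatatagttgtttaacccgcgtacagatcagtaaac
The windows lie at chr19:10832976-10833225 (minus strand) for Mt1, at chr19:10838709-10838958 (minus strand) for Mt2A, at chr13:106021769-106022018 (plus strand) for Slc30a1 and at chr9:62405183-62405432 (plus strand) for Slc39a10. The window of Mt1 held 6 matches, a number that 0.0269% of all 33469 promoter windows reached. The window of Mt2A held 4 matches, reached by 0.266% of all windows. Slc30a1, Slc30a4, Slc30a5 and Mtf1 each held 2 matches, reached by 4.9% of all windows, and those of Slc30a5 overlapped each other on opposite strands. Slc39a1 held 1 match, which 20.6% of all windows had, while Slc39a8 and Slc39a10 held none. A match describes the letters of the window and does not show binding. In the count table the row called Mt1 (ENSRNOG00000038047) lies on chromosome 17, whereas RefSeq places Mt1 on chromosome 19 next to Mt2A. Reads that map to several places were counted, so the Mt1 row may hold reads of near-identical metallothionein copies, and the window printed above may not belong to the locus that was counted.

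Levels are given as FPM, the fragments of a gene per 1000000 of the library, with library sizes scaled by TMM (trimmed mean of M values). Total counts ranged from 16412564 to 34250535 over the 23 samples, and 3 counts, the upper limit that a count of 0 allows, were worth 0.0839 to 0.203 FPM (for counting error alone). The filter on low counts kept 14777 genes. All 10 zinc genes passed it, but Mt2A and Slc39a8 passed only through NRK-49F cells. The cell type labels were checked against marker genes. Epcam had 0 to 1 count, Cdh1 0 to 12 counts and Esrp1 0 counts in every sample of either line, so defining epithelial markers were at or near 0 also in NRK-52E cells, where Krt7 had a mean of 21.8 FPM at pH 7.4. NRK-49F cells expressed the fibroblast genes Pdgfra (306 FPM at pH 7.4) and Col1a1 (5877 FPM), while Thy1 and Fap had at most 4 counts. The 8 of 10 epithelial markers in the table summed to between 463 and 683 FPM in NRK-52E cells at pH 7.4 and to between 199 and 265 FPM at pH 6.0, and in NRK-49F cells to between 668 and 1207 FPM and between 438 and 697 FPM, nearly all of it Krt8. The 3 leukocyte markers summed to between 21.6 and 33.3 FPM in NRK-49F cells at pH 7.4 and to between 217 and 251 FPM at pH 6.0, nearly all of it Cd68, and to between 1.92 and 3.93 FPM and between 4.04 and 8.55 FPM in NRK-52E cells, while Ptprc had 0 to 6 counts, and the 3 endothelial markers summed to at most 1.71 FPM in any sample. The part of these shifts in the results below was not tested. Control replicate A035 of NRK-52E cells had a median Pearson correlation of 0.978 with its group (0.986 for each of the others). Acidotic replicate A042 of NRK-49F cells had one of 0.979 (0.985 to 0.989 for the others). Values without A035 or A042 are given where they decide a call. Such values were not particular to them, since all acidotic NRK-52E samples had 0.977 to 0.979. The NRK-49F controls A051 and A052 had 0.983 and 0.982. In bulk samples, fewer cells of a kind and less RNA per cell cannot be told apart.

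In NRK-52E cells, acidosis went along with higher RNA levels of 4 transporters: the importers Slc39a14 and Slc39a10 and the exporters Slc30a5 and Slc30a4 rose, by 0.22 to 0.85 on the log2 scale. Mt2A and Slc39a1 fell, the former from a trace level that rested on few libraries. In NRK-49F cells only Slc39a14 and Slc30a4 passed the test, both higher at pH 6.0. These are 4 higher and 2 lower of 10 genes in NRK-52E cells, where 24.7% of all tested genes were higher, 36.6% were lower and 61.2% were called in either direction (quasi-likelihood test of edgeR, p-values adjusted over all tested genes by Benjamini-Hochberg, threshold 0.05). In NRK-49F cells 2 of 10 were higher and 0 lower, against 14.5% of all tested genes higher, 14.4% lower and 28.9% called. At an unadjusted p under 0.05, edgeR would have called 4 of the 10 lower in NRK-49F cells, and DESeq2 called 1 (adjusted). The shares of all tested genes under these settings are not given here, so nothing is read from these counts. The median log2 fold change of the 10 genes was 0.16 in NRK-52E and -0.17 in NRK-49F cells, beside -0.12 and 0.00088 over all tested genes. The median absolute log2 fold change of the 10 genes was 0.32 for NRK-52E and 0.38 for NRK-49F, compared with 0.52 and 0.27 over all tested genes. The counts and medians for NRK-52E cells include Slc39a8, which had 0 or 1 count in these samples and so no usable change there.

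**Figure D1:**
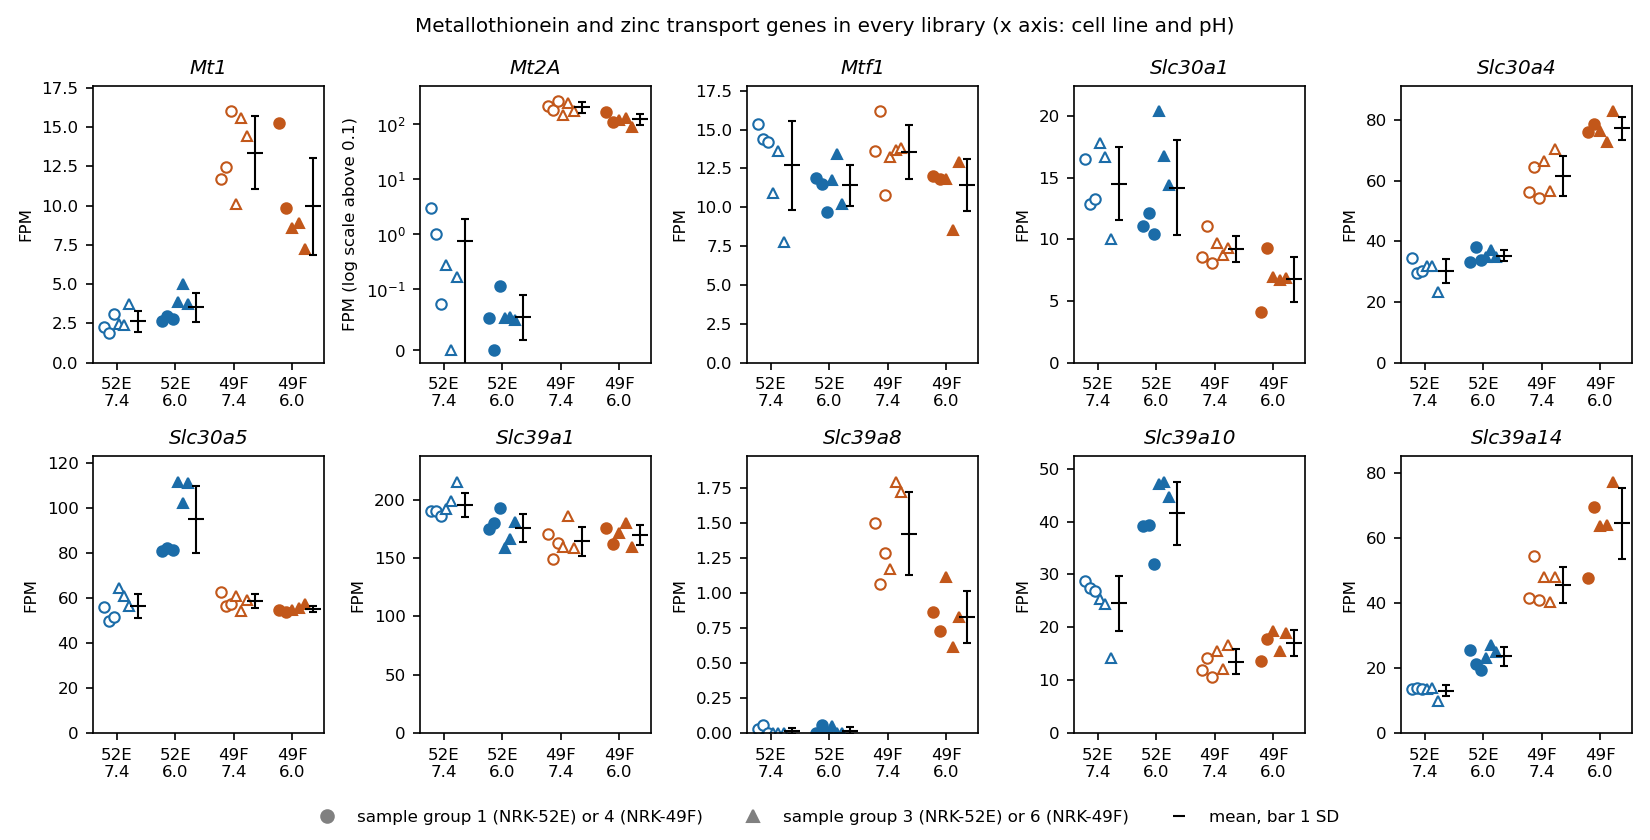
Level in FPM of the 10 zinc genes in each of the 23 samples, by cell line (52E, 49F) and pH on the x axis, with circles for sample groups 1 and 4, triangles for sample groups 3 and 6, and the mean with 1 SD in black. All axes start at 0 and are linear except that of Mt2A, which is logarithmic above 0.1 FPM. Slc30a5, Slc39a10 and Slc39a14 do not overlap between the pH values in NRK-52E cells, and Slc30a4 does not overlap in NRK-49F cells, while Mt2A and Slc39a8 lie near 0 in all NRK-52E samples.

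Among the importers, Slc39a14 (ENSRNOG00000009832, chromosome 15) rose in both lines. In NRK-52E cells its level ranged from 9.79 to 13.9 FPM at pH 7.4 (median 13.6) and from 19.5 to 27.1 FPM at pH 6.0 (median 24.0). The lowest acidotic sample stood above the highest control sample, which was the case for 3 of the 10 genes (Slc39a14, Slc39a10 and Slc30a5) and for 38.6% of all tested genes in NRK-52E cells in one direction or the other. The gene rose from a mean of 13.02 ± 1.59 FPM to 23.5 ± 2.83 FPM (n = 6 each, ± SD), or on the log2 scale by 0.85 (standard error SE 0.12, edgeR adjusted p = 9.65e-07). In NRK-49F cells the control samples lay between 40.2 and 54.4 FPM (median 44.7), and the acidotic samples had 47.7, 63.6, 63.8, 69.5 and 77.2 FPM. Of the latter, only the lowest (replicate A042) was within the range of the controls. The change in NRK-49F cells was 0.50 on the log2 scale (SE 0.12, edgeR adjusted p = 0.00209). The changes in the 2 lines differed by 0.35 (95% interval 0.00936 to 0.69), which did not pass the adjustment over all genes (edgeR adjusted p = 0.0932). Within the labelled sample groups of NRK-52E cells the rise was 0.69 (group 1) and 1.01 (group 3), and in NRK-49F cells the log2 difference was 0.36 in group 4 (edgeR adjusted p = 0.138) and 0.59 in group 6 (edgeR adjusted p = 0.00926).

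Slc39a10 (ENSRNOG00000011677, chromosome 9) encodes an importer of the plasma membrane. In NRK-52E cells it ranged from 14.2 to 28.7 FPM at pH 7.4 (median 26.2) and from 32.0 to 47.5 FPM at pH 6.0 (median 41.99), again without overlap. The log2 fold change was 0.76 (SE 0.15, edgeR adjusted p = 8.24e-05). In NRK-49F cells it lay between 10.6 and 16.7 FPM at pH 7.4 (median 13.2) and at 13.6, 15.6, 17.9, 18.8 and 19.3 FPM at pH 6.0. These ranges overlapped, and the log2 difference of 0.33 (SE 0.15) had an adjusted p of 0.110 in the edgeR test. The change of Slc39a10 in NRK-52E cells was 0.41 within sample group 1 (edgeR adjusted p = 0.0588) and 1.12 within sample group 3 (edgeR adjusted p = 1.93e-05). The difference between both sample groups was 0.71 (SE 0.25, edgeR adjusted p = 0.0736), and it had an adjusted p of 0.0478 with DESeq2. Replicate A035 of sample group 3, a control, was the lowest at 14.2 FPM, and without it the change over all NRK-52E samples was 0.64 (edgeR adjusted p = 7.80e-05).

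Slc39a1 (ENSRNOG00000059463, chromosome 2), a widely expressed importer of the plasma membrane, was slightly lower at pH 6.0 in NRK-52E cells. NRK-52E samples ranged from 186 to 215 FPM at pH 7.4 (median 191) and from 159 to 193 FPM at pH 6.0 (median 177), with some overlap. Slc39a1 fell by 0.15 on the log2 scale (SE 0.064, edgeR adjusted p = 0.0435), a call that was lost in 8 of 12 alternative settings (DESeq2 gave an adjusted p of 0.0787). The fall passed the test within sample group 3 (-0.26, edgeR adjusted p = 0.0124) and not within sample group 1 (-0.047, edgeR adjusted p = 0.670). In NRK-49F cells the control samples lay between 149 and 186 FPM (median 161) and the acidotic samples at 160, 162, 172, 176 and 179.9 FPM. There the log2 difference was 0.047 (95% interval -0.092 to 0.19, edgeR adjusted p = 0.648).

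Slc39a8 (ENSRNOG00000012508, chromosome 2), the importer that also takes up manganese and cadmium, was read almost only in NRK-49F cells. NRK-52E samples had 0 or 1 count at either pH, so no change can be given for them. NRK-49F samples had 1.07 to 1.798 FPM at pH 7.4 (median 1.39, 19 to 54 counts) and 0.613, 0.732, 0.833, 0.866 and 1.11 FPM at pH 6.0 (12 to 30 counts). A single acidotic sample reached the range of the controls. The log2 difference was -0.77 (SE 0.29), just short of the threshold with edgeR (adjusted p = 0.0506). It was past the threshold in 7 of 12 alternative settings, among them sample group as a block (-0.79, edgeR adjusted p = 0.0357), the line fitted alone (-0.78, edgeR adjusted p = 0.0209) and DESeq2 (adjusted p = 0.0289).

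Of the exporters, Slc30a5 (ENSRNOG00000018746, chromosome 2) rose in NRK-52E cells, and its change differed between the lines. SLC30A5 pairs with SLC30A6 in the early secretory pathway, where both load zinc into enzymes such as alkaline phosphatase. In NRK-52E cells Slc30a5 ranged from 49.9 to 64.3 FPM at pH 7.4 (median 56.3) and from 80.9 to 112 FPM at pH 6.0 (median 92.1). All acidotic samples were above all control samples, and within the acidotic ones the samples of group 3 (102 to 112 FPM) were above those of group 1 (80.9 to 82.2 FPM). The gene rose from a mean of 56.5 ± 5.42 FPM to 94.9 ± 15.1 FPM (n = 6 each, ± SD), or on the log2 scale by 0.75 (SE 0.087, edgeR adjusted p = 8.59e-08). In NRK-49F cells the level was 54.2 to 62.8 FPM at pH 7.4 (median 58.2) and 53.7, 54.8, 54.9, 55.6 and 57.3 FPM at pH 6.0. The log2 difference there was -0.082 (95% interval -0.27 to 0.11, edgeR adjusted p = 0.540). Between the lines, the log2 difference of NRK-52E against NRK-49F cells was -0.050 at pH 7.4 (edgeR adjusted p = 0.621), whereas at pH 6.0 NRK-52E cells were higher by 0.78 (edgeR adjusted p = 4.14e-08). The change differed between the lines for 3 of the 10 genes (2 with the higher value in NRK-52E cells, 1 with the lower), against 41.4% of all tested genes. The 1 with the lower value was Mt2A, which passed the filter only through NRK-49F cells and was not called without replicates A021 and A022 of NRK-52E cells. Mt1, 1 of the 2 with the higher value, was not called without these replicates either (edgeR adjusted p = 0.0767). Slc39a8, at 0 or 1 count in NRK-52E samples, is also among the 10. For Slc30a5 the difference was 0.83 (SE 0.13, edgeR adjusted p = 1.21e-05). Within NRK-52E cells at pH 6.0, sample group 3 was higher than group 1 by 0.41 (edgeR adjusted p = 0.000344), while the changes of 0.63 in group 1 and 0.84 in group 3 both passed the test, and the difference of 0.21 between them did not (edgeR adjusted p = 0.239).

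Slc30a4 (ENSRNOG00000000170, chromosome 3), which moves zinc into vesicles, was higher at pH 6.0 in both lines. In NRK-49F cells it ranged from 54.2 to 70.3 FPM at pH 7.4 (median 60.4) and had 72.6, 75.9, 76.2, 78.7 and 82.9 FPM at pH 6.0. The samples did not overlap, as was the case for 20.6% of all tested genes in NRK-49F cells. With raw library sizes they did overlap, as acidotic replicate A042 had 61.0 FPM and control replicate A053 had 68.7 FPM. The log2 fold change was 0.33 (SE 0.087, edgeR adjusted p = 0.00555). This result was unchanged in 10 of 12 alternative settings, but not with raw library sizes or within sample group 6. In NRK-52E cells the samples lay between 23.2 and 34.6 FPM at pH 7.4 (median 30.9) and between 33.2 and 38.2 FPM at pH 6.0 (median 34.7), with overlap. The log2 fold change of 0.22 (SE 0.084) passed the test with an adjusted p of 0.0247 (edgeR), but not without replicate A035, the lowest control (0.16, adjusted p = 0.0701), nor without replicate A025, the highest acidotic sample (0.20, adjusted p = 0.0524). Of 12 alternative settings, 9 left the NRK-52E result unchanged. Raw library sizes, sample group 1 alone and an adjusted p under 0.01 did not. The difference between the changes of both lines was -0.11 (95% interval -0.36 to 0.14, edgeR adjusted p = 0.512).

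Slc30a1 (ENSRNOG00000004749, chromosome 13) exports zinc across the plasma membrane and is a standard readout of MTF1. In NRK-52E cells it lay between 10.0 and 17.8 FPM at pH 7.4 (median 14.9) and between 10.5 and 20.4 FPM at pH 6.0 (median 13.3), and the log2 difference was -0.037 (95% interval -0.40 to 0.33, edgeR adjusted p = 0.875). At pH 6.0 the samples of group 3 (14.4 to 20.4 FPM) were above those of group 1 (10.5 to 12.2 FPM), a log2 difference of 0.62 that narrowly missed the threshold (edgeR adjusted p = 0.0512). In NRK-49F cells the levels were 8.11 to 11.1 FPM at pH 7.4 (median 8.995) and 4.13, 6.68, 6.83, 6.97 and 9.27 FPM at pH 6.0. All but the highest acidotic sample (A043) were below the controls. The log2 difference was -0.45 (SE 0.19, edgeR adjusted p = 0.0808), and without replicate A043 it was -0.58 (edgeR adjusted p = 0.0306).

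**Figure D2:**
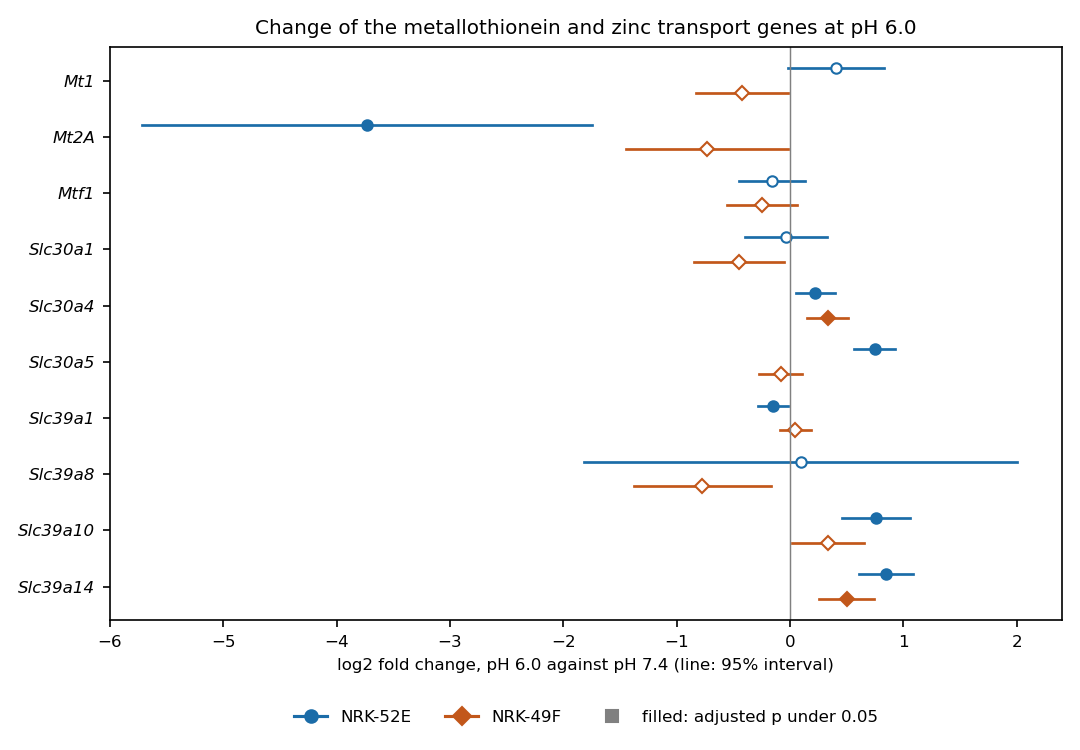
Log2 fold change of pH 6.0 against pH 7.4 for the 10 zinc genes (y axis) in NRK-52E (blue circles) and NRK-49F cells (orange diamonds), with 95% intervals as lines and filled symbols where the adjusted p was under 0.05. Slc39a14 and Slc30a4 are filled in both lines. Slc30a5 lies at 0.75 for NRK-52E and at -0.082 for NRK-49F, and the interval of Mt2A in NRK-52E cells runs from -5.72 to -1.75.

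Both metallothioneins were lower in NRK-52E than in NRK-49F cells. Mt2A (ENSRNOG00000043098, chromosome 19) was an abundant message of NRK-49F cells, with 149 to 267 FPM at pH 7.4 (median 202) and 90.3, 112, 119.8, 133 and 169 FPM at pH 6.0. The highest acidotic sample, A042, lay in the lower part of the control range, and the other 4 were under the lowest control. The mean was 207.5 ± 45.5 FPM (SD, n = 6) at pH 7.4 and 125 ± 29.3 FPM (SD, n = 5) at pH 6.0. The log2 difference of -0.73 (SE 0.34) had an adjusted p of 0.117 with edgeR in the model of all samples. With NRK-49F cells fitted alone it was -0.74 with an adjusted p of 0.00423 (edgeR), with sample group as a block -0.71 (edgeR adjusted p = 0.0444), and without A021 and A022 of the other line -0.73 (edgeR adjusted p = 0.00242). Within sample groups 4 and 6 it was -0.67 and -0.74 (edgeR adjusted p = 0.256 and 0.156).

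In NRK-52E cells Mt2A was at trace level. The control samples had 106 counts (A021), 19 (A022), 6 (A033), 3 (A035), 2 (A023) and 0 (A034), and the acidotic samples had 0 to 4 counts. The fitted log2 fold change was -3.73 (SE 0.96, edgeR adjusted p = 0.00171), a value that depends on how counts near 0 are treated. Replicates A021 and A022 decided it, and without both, an alternative chosen after seeing the data, the log2 difference was -1.02 (edgeR adjusted p = 0.286). Some of the fibroblast genes were also highest in replicate A021. Its Mt2A level was 1.43% of the NRK-49F mean at pH 7.4, its Pdgfra level 1.54% and its Vcam1 level 1.47%. In replicate A022 these shares were 0.4927%, 0.720% and 0.297%. In the acidotic NRK-52E samples none of the 3 genes exceeded 0.0933% of the NRK-49F mean at pH 6.0. Other markers went the other way. Of the NRK-52E controls, A021 was the highest for Pdgfra, Vcam1, Col1a1, Col1a2 and Lum, and the lowest for Pdgfrb (38.6 FPM) and Col3a1 (4678 FPM). All 10 fibroblast markers together summed to between 4901 FPM (A021, the lowest) and 8102 FPM in NRK-52E cells at pH 7.4. At pH 6.0 they summed to between 1830 and 3110 FPM there. In NRK-49F cells the sums lay between 10494 and 13564 FPM at pH 7.4 and between 7315 and 9806 FPM at pH 6.0. The main part in NRK-52E cells was Col3a1, with a mean of 6149 FPM there at pH 7.4 against 1212 FPM in NRK-49F cells. The part of RNA from the other line in the Mt2A values was not tested. The difference between the changes of both lines, -3.00 (edgeR adjusted p = 0.0287), was -0.28 without A021 and A022 (edgeR adjusted p = 0.791).

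**Figure D3:**
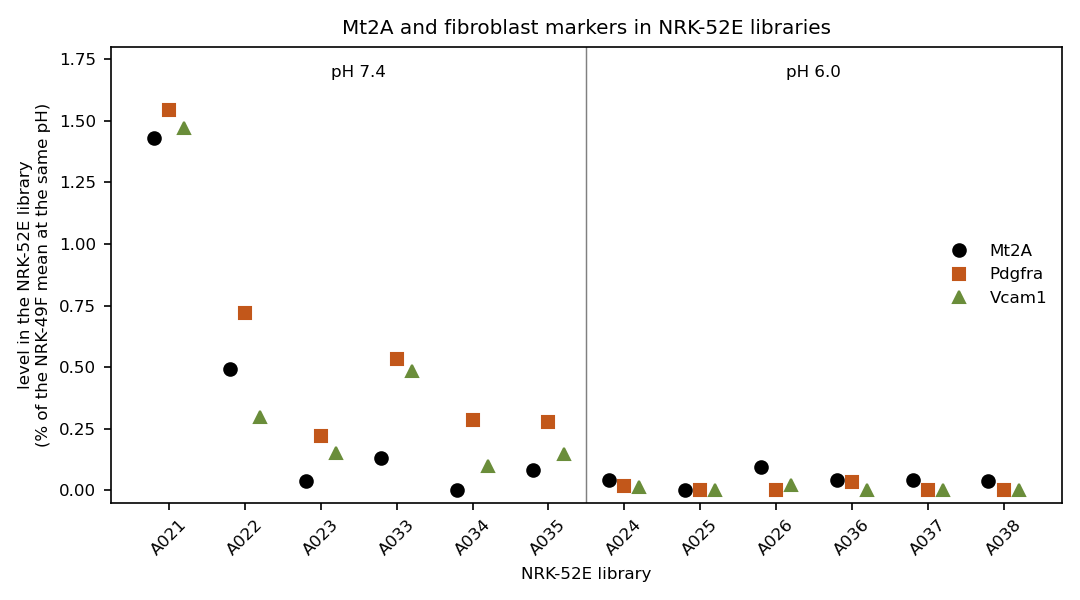
Level of Mt2A and of the fibroblast markers Pdgfra and Vcam1 in each NRK-52E sample (x axis, pH 7.4 left and pH 6.0 right), as a percentage of the mean of the NRK-49F samples at the same pH. Replicate A021 is highest for all 3 genes with 1.43%, 1.54% and 1.47%, and the acidotic samples are all at or below 0.0933%. The fibroblast markers Pdgfrb and Col3a1, not shown, were lowest in A021 among the NRK-52E samples at pH 7.4.

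The row counted as Mt1 (ENSRNOG00000038047, chromosome 17) may hold reads of other metallothionein copies, as said above. It was lower in NRK-52E than in NRK-49F cells without any overlap. NRK-52E samples ranged from 1.88 to 3.74 FPM at pH 7.4 (median 2.43) and from 2.66 to 5.02 FPM at pH 6.0 (median 3.35). The log2 difference was 0.41 (SE 0.20, edgeR adjusted p = 0.0869), and without replicate A035, the highest control, it was 0.53 (edgeR adjusted p = 0.0318). NRK-49F samples ranged from 10.1 to 16.02 FPM at pH 7.4 (median 13.4) and had 7.22, 8.60, 8.91, 9.88 and 15.2 FPM at pH 6.0. All acidotic samples but A042 lay below the lowest control. The log2 difference was -0.42 (SE 0.20, edgeR adjusted p = 0.112), and without A042 it was -0.63 (edgeR adjusted p = 0.0174). Within the sample groups of NRK-49F cells it was -0.084 in group 4 (edgeR adjusted p = 0.840) and -0.69 in group 6 (edgeR adjusted p = 0.0264). DESeq2 gave an adjusted p of 0.0479 for the change in NRK-52E cells, and raw library sizes one of 0.0489 for that in NRK-49F cells (edgeR). With edgeR and TMM neither change passed the test over all samples, but the difference between them did, at 0.83 (SE 0.28, edgeR adjusted p = 0.0218). Without A021 and A022 that difference was 0.68 (edgeR adjusted p = 0.0767).

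Mtf1 (ENSRNOG00000025724, chromosome 5), which encodes the zinc-sensing factor itself, passed the test in neither line. NRK-52E samples ranged from 7.75 to 15.4 FPM (median 13.9) at pH 7.4 and from 9.69 to 13.4 FPM (median 11.7) at pH 6.0. In NRK-49F cells it ranged from 10.8 to 16.2 FPM (median 13.6) at pH 7.4 and had 8.55, 11.83, 11.83, 12.03 and 12.94 FPM at pH 6.0. All ranges overlapped. The log2 difference between the pH values was -0.16 in NRK-52E cells (95% interval -0.45 to 0.13, edgeR adjusted p = 0.341) and -0.25 in NRK-49F cells (95% interval -0.56 to 0.058, edgeR adjusted p = 0.227).

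When the lines were compared with each other, Mt2A and Slc39a8 were left out of the count, because the filter on low counts kept them through NRK-49F cells alone and so fixed their direction. Of the other 8 genes, 6 differed at either pH, against 68.8% of all tested genes at pH 7.4 and 75.5% at pH 6.0. At pH 7.4, 3 genes were higher in NRK-52E cells, where 35% of all tested genes were higher, and 3 were lower, as were 33.9% of all tested genes. Slc30a1 was higher in NRK-52E cells by 0.65 (edgeR adjusted p = 0.00231) at pH 7.4 and by 1.07 (edgeR adjusted p = 2.33e-05) at pH 6.0. Slc39a10 was higher there by 0.86 and 1.29 (edgeR adjusted p = 1.49e-05 and 7.16e-08). Slc39a1 was higher in NRK-52E cells by 0.25 at pH 7.4 (edgeR adjusted p = 0.00143), while at pH 6.0 the log2 difference was 0.050 (edgeR adjusted p = 0.508), or 0.26 with raw library sizes (edgeR adjusted p = 0.000121). At pH 6.0 Slc30a5 took its place among the 3 genes higher in NRK-52E cells (36.6% of all tested genes), and 3 genes were lower (38.9% of all tested genes). For Slc39a14 the log2 difference of NRK-52E against NRK-49F cells was -1.803 at pH 7.4 and -1.45 at pH 6.0 (edgeR adjusted p = 1.16e-12 and 6.23e-11). For Slc30a4 the log2 differences were -1.02 and -1.13 (edgeR adjusted p = 1.09e-10 and 2.59e-11), and for Mt1 -2.34 and -1.51 (edgeR adjusted p = 2.32e-10 and 3.95e-07). The mean level of Mt2A was 0.751 ± 1.15 FPM in NRK-52E cells (SD, n = 6) beside 207.5 FPM in NRK-49F cells at pH 7.4, and 0.0544 ± 0.037 FPM (SD, n = 6) beside 125 FPM at pH 6.0. Slc39a8 was at least 10.3-fold higher in NRK-49F cells at pH 7.4 and at least 5.66-fold higher at pH 6.0, as bounds against the mean level that 3 counts per NRK-52E library would give. These levels are a description, with no test. The libraries were scaled by TMM, and with raw library sizes the median log2 difference of all genes between the lines moved by 0.19 at pH 7.4 and by 0.21 at pH 6.0 towards NRK-52E cells, and the share of called genes that were higher in NRK-52E cells at pH 7.4 went from 50.8% to 62.0%.

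The labelled sample groups were compared as a possible batch, since each of them holds both pH values. The change at pH 6.0 differed between groups 1 and 3 of NRK-52E cells for 0 of the 10 genes with edgeR. Over all tested genes it differed for 10.6% (3.78% with the higher change in group 3 and 6.87% with the lower). At an unadjusted p under 0.05 it differed for 1 of the 10 (Slc39a10), against 24.3% of all tested genes. With DESeq2 it differed for 1 of the 10, also Slc39a10, and for 2184 of all tested genes. Between groups 4 and 6 of NRK-49F cells it differed for 0 of the 10 (0 at an unadjusted p under 0.05, and 0 with DESeq2), and 0% of all tested genes were called with edgeR, of which 596 had an unadjusted p under 0.05, whereas DESeq2 called 10. The rises of Slc30a5 and Slc39a14 in NRK-52E cells passed the test within each sample group. In NRK-49F cells Slc30a4 passed it in group 4 alone (0.41, edgeR adjusted p = 0.0260), with 0.26 in group 6 (edgeR adjusted p = 0.118).

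**Figure D4:**
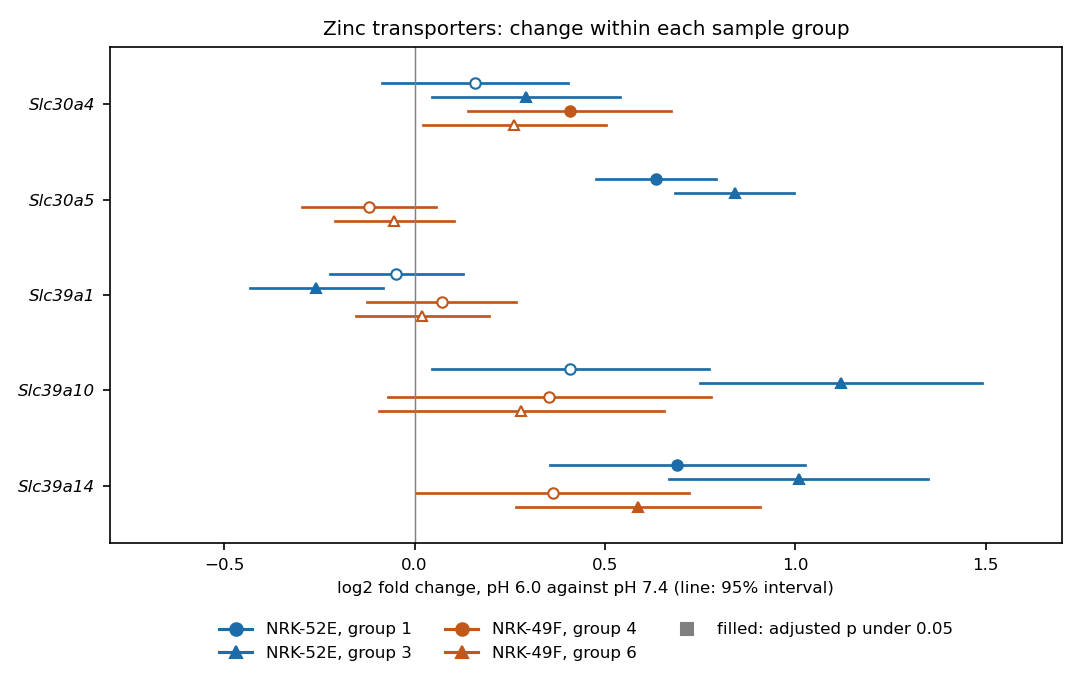
Log2 fold change of pH 6.0 against pH 7.4 within each labelled sample group for the 5 zinc transporters that passed the test in at least 1 line and do not rest on trace counts, with 95% intervals as lines, blue for NRK-52E and orange for NRK-49F cells, circles for sample groups 1 and 4, triangles for 3 and 6, and filled symbols where the adjusted p was under 0.05. Slc30a5 and Slc39a14 are filled in both NRK-52E groups, and Slc39a10 lies at 0.41 in group 1 and 1.12 in group 3.

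The rest of the family was read from a list of 19 further zinc transporters and metallothioneins, of which 12 passed the filter on counts. In NRK-52E cells 4 of them were higher and 3 lower at pH 6.0, and in NRK-49F cells 1 was higher and 4 were lower, with median log2 fold changes of 0.10 and -0.16. The shares over all tested genes were 24.7% (higher) and 36.6% (lower) for NRK-52E, beside 14.5% and 14.4% for NRK-49F. Slc30a6, the partner of Slc30a5 in the secretory pathway, fell in NRK-52E cells from a mean of 50.3 ± 3.57 FPM to 23.8 ± 1.45 FPM (n = 6 each, ± SD), with a log2 fold change of -1.08 (SE 0.066, edgeR adjusted p = 2.72e-12), and it also fell in NRK-49F cells, with a log2 fold change of -0.29 (edgeR adjusted p = 0.00273). The difference between both changes was -0.78 (edgeR adjusted p = 6.57e-07). The pair thus moved in opposite directions in NRK-52E cells. Slc39a4, the importer mutated in the zinc deficiency disorder acrodermatitis enteropathica, fell in NRK-52E cells from 6.76 ± 0.986 to 3.06 ± 0.502 FPM (log2 fold change -1.14, edgeR adjusted p = 7.66e-05) and in NRK-49F cells (log2 fold change -1.52, edgeR adjusted p = 0.00423), where it had 1 to 18 counts per sample. Slc39a13, an importer of the early secretory pathway, fell in NRK-49F cells from 141 ± 5.46 (SD, n = 6) to 81.4 ± 3.48 FPM (SD, n = 5), with a log2 fold change of -0.79 (edgeR adjusted p = 1.15e-06). In NRK-52E cells its log2 difference was 0.20 (edgeR adjusted p = 0.0574), with 0.19 and an adjusted p of 0.0327 in the edgeR fit with sample group as a block, 0.39 within group 1 (edgeR adjusted p = 0.000556) and -0.022 within group 3 (edgeR adjusted p = 0.846). It also passed with DESeq2 (adjusted p = 0.0170), and the changes of both lines differed by 1.00 (edgeR adjusted p = 2.35e-06).

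Slc30a9, which encodes a mitochondrial zinc transporter, rose by 0.65 in NRK-52E cells (edgeR adjusted p = 6.55e-09) and by 0.18 in NRK-49F cells (edgeR adjusted p = 0.0434), the latter a call that was lost in 7 of 12 alternative settings (edgeR adjusted p = 0.0816 with the line fitted alone). Slc30a7, an exporter into the Golgi, fell in NRK-49F cells (log2 fold change -0.57, edgeR adjusted p = 0.00166), while its log2 difference in NRK-52E cells was -0.12 (edgeR adjusted p = 0.413). The importers Slc39a9 and Slc39a11 rose in NRK-52E cells by 0.48 each (edgeR adjusted p = 0.000145 and 0.000853), and Slc39a3 fell there (log2 fold change -0.45, edgeR adjusted p = 7.52e-05). In NRK-49F cells the log2 differences of these 3 genes were -0.073, 0.24 and -0.028, none past the threshold. Among the metallothioneins, Mt4 and the copy Mt1m had 0 counts in all samples, and Mt3 had 0 counts in NRK-52E and 7 to 36 counts in NRK-49F samples. Slc39a7 was listed at 0 or 1 count in every sample.

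Of 5 genes linked to MTF1, 3 were tested, and in each line 1 was higher and 1 lower, where 61.2% of all tested genes were called in NRK-52E and 28.9% in NRK-49F cells. Gclc, the catalytic subunit of the rate-limiting enzyme of glutathione synthesis, rose in both lines, from 73.9 ± 8.23 to 111 ± 3.52 FPM in NRK-52E cells and from 58.8 ± 3.78 to 112 ± 8.20 FPM in NRK-49F cells (log2 fold changes 0.58 and 0.93, edgeR adjusted p = 1.79e-07 and 1.81e-09). Csrp1, which encodes a LIM domain protein, fell in NRK-49F cells (log2 fold change -0.72, edgeR adjusted p = 7.74e-05), with a log2 difference of 0.0068 in NRK-52E cells (edgeR adjusted p = 0.968). Ndrg1 was called lower in NRK-52E cells (log2 fold change -2.81, edgeR adjusted p = 0.00419), but like Mt2A it was at trace level there, with 1 to 197 counts at pH 7.4, the most in replicate A021, against 402 ± 38.4 FPM (SD, n = 6) in NRK-49F cells. Without A021 and A022 its log2 difference was -0.34 (edgeR adjusted p = 0.705), and within sample group 3 it was -1.91 (edgeR adjusted p = 0.352). Of 4 other zinc genes, 3 were tested. Gpr39, a zinc-sensing receptor, fell from 5.39 ± 0.563 to 1.32 ± 1.09 FPM in NRK-52E cells and from 3.29 ± 0.490 to 0.676 ± 0.157 FPM in NRK-49F cells (log2 fold changes -2.00 and -2.30, edgeR adjusted p = 5.45e-05 and 0.00023). At pH 6.0 its mean in NRK-52E cells was 2.29 FPM in sample group 1 and 0.355 FPM in sample group 3. The log2 fold change of Gpr39 was -1.31 within group 1 and -3.84 within group 3, and these differed by -2.54 (edgeR adjusted p = 0.000269). Cbwd1, which encodes a zinc chaperone, fell in NRK-52E cells (log2 fold change -0.47, edgeR adjusted p = 0.000215), and its change differed from that in NRK-49F cells by -0.54 (edgeR adjusted p = 0.00365).

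Metallothioneins also bind copper, so 8 genes of copper handling were read beside them, of which 6 were tested. In NRK-52E cells 3 were higher and 1 lower, where 61.2% of all tested genes were called, and in NRK-49F cells only Slc31a2 passed the test, where 28.9% were called. Slc31a1, the high-affinity copper importer, rose in NRK-52E cells from a mean of 81.6 ± 6.54 FPM to 151 ± 12.3 FPM (n = 6 each, ± SD, log2 fold change 0.89, edgeR adjusted p = 1.11e-10), with a log2 difference of 0.061 in NRK-49F cells (edgeR adjusted p = 0.575). Within NRK-52E cells its rise was 0.69 in sample group 1 and 1.09 in sample group 3, a difference of 0.40 (edgeR adjusted p = 0.0166). Atox1, the copper chaperone that supplies the secretory pathway, fell in NRK-52E cells from 44.5 ± 13.99 to 15.9 ± 2.55 FPM (log2 fold change -1.48, edgeR adjusted p = 6.60e-07), with -0.12 in NRK-49F cells (edgeR adjusted p = 0.695). Both changes differed between the lines, by 0.83 for Slc31a1 and by -1.36 for Atox1 (edgeR adjusted p = 5.82e-07 and 0.000357). Slc31a2 rose in both lines by 0.20 and 0.27 (edgeR adjusted p = 0.0498 and 0.0298), calls that were lost in 6 and in 5 of 12 alternative settings. In NRK-52E cells sample group as a block gave an adjusted p of 0.0516 (edgeR). Ccs, the copper chaperone of superoxide dismutase, rose in NRK-52E cells by 0.42 (edgeR adjusted p = 0.0311), but did not pass without A021 and A022 or within sample group 1.

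**Figure D5:**
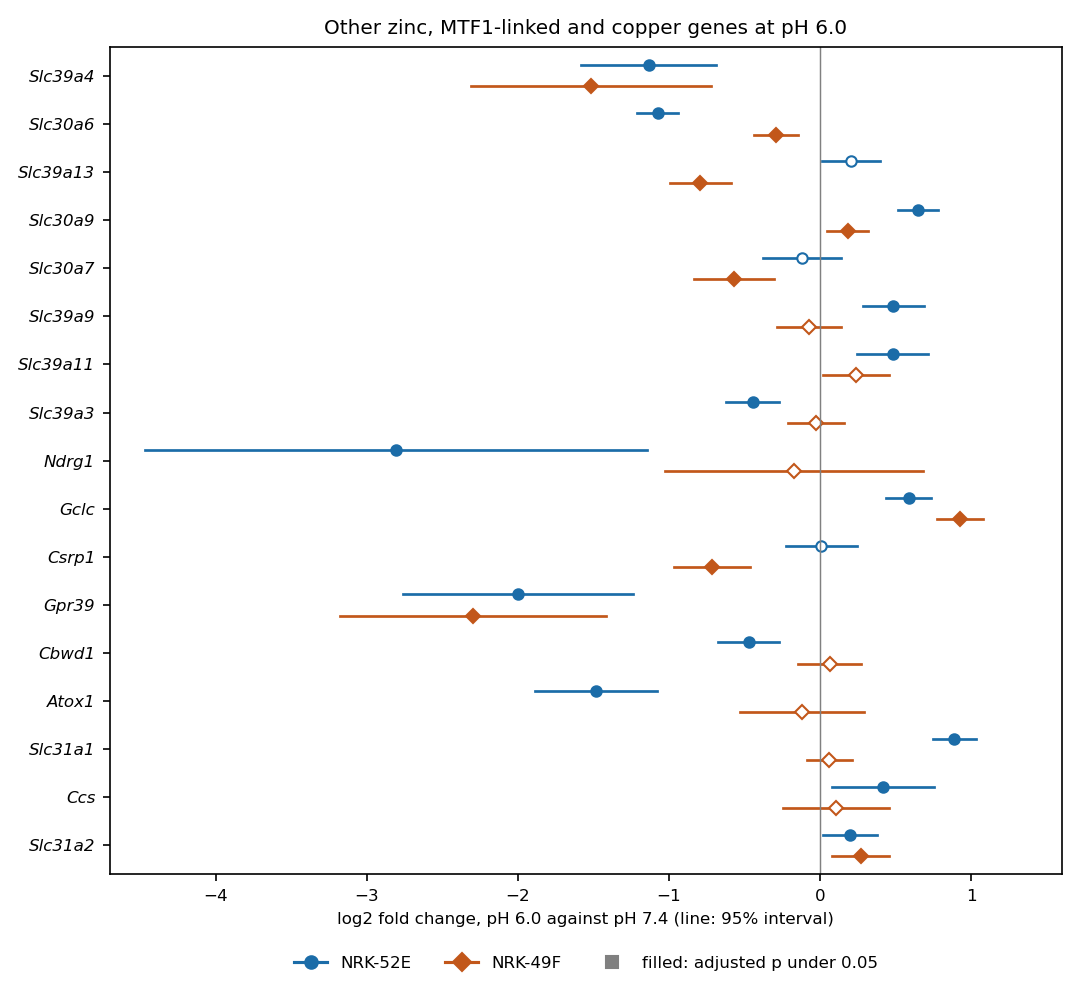
Log2 fold change of pH 6.0 against pH 7.4 for the other genes of zinc transport, MTF1-linked genes, other zinc genes and copper genes that passed the test in at least 1 line (up to 8 per list), in NRK-52E (blue circles) and NRK-49F cells (orange diamonds), with 95% intervals as lines and filled symbols where the adjusted p was under 0.05. Slc30a6, Slc39a4 and Gpr39 lie below 0 and Gclc, Slc30a9 and Slc31a2 above 0 in both lines, while the wide interval of Ndrg1 belongs to its trace counts in NRK-52E cells.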

How the data were processed

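RNA was poly(A)-enriched and sequenced from 2 rat kidney cell lines at 2 pH values. Per the labels and the methods of the study, the authors aligned reads with HISAT2 2.1.0 and counted them per gene with featureCounts, multi-mapping reads included. The labels name build rn6 and the methods rn7, and strand was not given in the sources used here. The deposited counts were used as they are. Another 13 sample columns of the table match no sample here and were not used. Genes with low counts were removed by filterByExpr of edgeR 4.0.16 (R 4.3.3, minimum count 10, minimum total 15), libraries were scaled by TMM, and glmQLFit and glmQLFTest were fitted to all 23 samples with 4 groups, or with 8 groups where labelled sample groups were compared. P-values were adjusted by Benjamini-Hochberg over 14777 genes, with a threshold of 0.05. In simulated counts for the same genes, 170 of 200 changed genes were recovered for NRK-52E and 126 of 150 for NRK-49F cells. For the difference of both changes 240 of 350 were recovered, and 9, 4 and 11 unchanged genes were called. The planted changes were larger than every change of the 10 genes that was called over all samples of a line, except that of Mt2A. They were set only in genes above a minimum FPM, so recovery of smaller changes or of trace genes was not tested. Apart from the planted changes, each simulated gene had the same mean level in both lines and all sample groups. In the data 68.8% of tested genes differed between the lines at pH 7.4, and 61.2% were called in NRK-52E cells. Recovery under such differences was not tested. The alternatives were DESeq2 1.42.0, a likelihood ratio test, other scalings and filters, single lines, sample groups and single libraries left out. The 10 genes, all of them described, and the other gene lists were chosen with earlier results of these data known, and of the other lists up to 8 genes with the largest changes among those past the threshold are named. Promoters were taken from RefSeq (GRCr8).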

Additional observations from a re-analysis of the deposited data

Results flagged for a closer look

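Of 108 groups of samples tested, 8 held a sample that stood apart from the rest by Dixon's criterion, which chance gives in about 1 in 20 groups. Replicate A021 was high for Mt2A in NRK-52E cells at pH 7.4, with 2.97 FPM. Replicate A055 was low for Mtf1 in NRK-49F cells at pH 6.0, with 8.55 FPM. The other 6 were control replicate A035 of NRK-52E cells, which was low for Slc39a10 (14.2 FPM), Slc39a14 (9.79 FPM) and Slc39a9 (53.5 FPM) and stood apart for Csrp1 (361 FPM), Atox1 (72.5 FPM) and Ccs (101 FPM).

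The change at pH 6.0 differed between the lines for 15 of 27 named genes by the edgeR contrast of both changes, against 41.4% of all tested genes. Apart from the 10 zinc genes, these genes were named because they had passed the test in at least 1 line, so nothing is read from that count. Among the 10 zinc genes the differences, as the log2 change in NRK-52E minus that in NRK-49F cells, were 0.83 for Mt1, -3.00 for Mt2A and 0.83 for Slc30a5. Without A021 and A022 they were 0.68 for Mt1 and -0.28 for Mt2A (edgeR adjusted p = 0.0767 and 0.791). Of the further zinc transporters, Slc30a6 differed by -0.78, Slc30a7 by 0.45 (lost in 5 of 9 alternative settings, with adjusted p up to 0.0971 by edgeR), Slc30a9 by 0.46, Slc39a3 by -0.42, Slc39a9 by 0.56 and Slc39a13 by 1.00. The remaining differences were -2.64 for Ndrg1, which was at trace level in NRK-52E cells (-0.17 without A021 and A022, edgeR adjusted p = 0.888), -0.34 for Gclc, 0.72 for Csrp1, -0.54 for Cbwd1, -1.36 for Atox1 and 0.83 for Slc31a1.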

How the results depend on the processing

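No paired analysis was possible because no replicate code occurs at both pH values. The counts that follow are given without the share of all tested genes called under the same setting, so nothing is read from their shifts. Among the 10 genes, the 6 called in NRK-52E cells were 3 within sample group 1. The 2 called in NRK-49F cells were 4 with that line fitted alone, 4 with sample group as a block (Mt2A and Slc39a8 added in both) and 1 within group 4. The 3 called for the difference of both changes were 1 at an adjusted p under 0.01 and 1 without A021 and A022 (chosen after seeing the data). The 0 called between sample groups 3 and 1 were 1 with DESeq2 and 1 with the likelihood ratio test. Leaving out 1 library at a time gave 4 to 6 genes in NRK-52E cells, 2 to 4 in NRK-49F cells and 2 to 4 for the difference. It gave 8 to 8 between the lines and 0 to 1 between groups 3 and 1. The 8 include Mt2A and Slc39a8, whose direction the filter on low counts fixed, and without these genes 6 of 8 were called over all samples.

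Some log2 differences turned direction with the setting, none of them past the threshold in either form. With raw library sizes these were Csrp1 in NRK-52E cells (-0.000928), Mtf1 between the lines (0.099 at pH 7.4, 0.21 at pH 6.0), Slc30a5 between the lines at pH 7.4 (0.13), and Mt2A (0.019) and Slc39a1 (0.024) between sample groups 6 and 4. With the other scalings or tests, Mtf1 between the lines at pH 6.0 was 0.033 (DESeq2), 0.033 (RLE), 0.0051 (upper quartile) and 0.00696 (no count filter). In NRK-52E cells, Slc30a1 was 0.0054 (DESeq2), 0.0052 (RLE) and 0.054 (line fitted alone), and Csrp1 was -0.015 (upper quartile) and -0.027 (without A021 and A022). Within sample group 3, Mtf1 was 0.13, Slc30a1 0.21, Slc39a13 -0.022 and Csrp1 -0.092. Slc39a8 was -0.62 within sample group 1 (0 to 1 count), Atox1 0.011 and Slc39a3 0.010 within sample group 4, and Ccs -0.020 within sample group 6. The causes were not tested.

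With 1 library left out at a time, these log2 differences changed sign. For the change in NRK-49F cells, the range was -0.26 to 0.0058 for Atox1, -0.018 to 0.22 for Ccs and -0.067 to 0.028 for Slc39a3. For the change in NRK-52E cells, the range was -0.042 to 0.098 for Csrp1, -0.17 to 0.042 for Slc30a1 and -0.44 to 0.63 for Slc39a8. For the difference between sample groups 6 and 4, the range was -0.34 to 0.25 for Mt2A, -0.25 to 0.055 for Mtf1, -0.44 to 0.73 for Slc30a1, -0.11 to 0.029 for Slc39a1, -0.26 to 0.14 for Slc39a10, -0.024 to 0.52 for Slc39a14 and -0.44 to 0.017 for Slc39a8. For the difference between both changes, the range was -0.017 to 0.15 for Mtf1. Between the lines at pH 6.0, the range was -0.093 to 0.045 for Mtf1 and -0.019 to 0.0804 for Slc39a1. Between the lines at pH 7.4, the range was -0.15 to 0.015 for Mtf1. For the difference between sample groups 3 and 1, the range was -6.22e-05 to 0.21 for Slc30a4. Without A035, Mt1 passed in NRK-52E cells and Slc39a10 in NRK-49F cells (0.33, edgeR adjusted p = 0.0430), and Slc30a4 did not in NRK-52E cells. Counts of 0 to 4 limit Mt2A and Slc39a8 in acidotic NRK-52E cells.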
